A study of Mus musculus with 4 samples.

Results

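Chemokines and their receptors were followed in RNA-seq libraries of 4 mouse livers that lacked Cpt1a, the outer-membrane enzyme that lets long-chain fatty acids into mitochondria. Members were all protein-coding genes of the deposited gene table whose symbol starts with Ccl, Cxcl, Ccr or Cxcr followed by a number and at most a single letter. The rule found 58 entries among 54532 genes, of which 22046 are protein coding, and 57 of the entries are described. The 57 entries carry 51 symbols, since 7 of them lie on unplaced scaffolds, mostly as extra copies of Ccl19, Ccl21 and Ccl27a. By class they are 30 CC ligands, 12 CXC ligands, 9 CC receptors and 6 CXC receptors. Cxcl11 is left out, because the table does not class it as protein coding.

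The libraries form 1 labelled group: livers of mice with a liver-specific Cpt1a knockout, taken after a 24 h fast. Their age, sex and strain are not stated. The authors' deposited tables head this group Cpt1a_AlbCre and set it against 2 further groups, Cpt2_AlbCre and Rab30Cpt2_f. AlbCre is the usual name of a Cre recombinase under the albumin promoter, which acts in hepatocytes, so other liver cells keep the gene. Cpt2 is the inner-membrane partner of Cpt1a. Nothing in the sources used here explains the heading Rab30Cpt2_f. The design names littermate controls and fasting of the same length, and says that the Cpt2 livers belong to an earlier series. The question behind the comparisons is how much of the fasted liver's transcription depends on each enzyme. Nothing says that the groups were sequenced together, so genotype and batch cannot be told apart in any comparison. Nothing says either that the 4 libraries are from different mice, and the spread between them may therefore be technical.

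Chemokines are small secreted proteins that steer leukocytes along gradients through G protein-coupled receptors on those cells. CC and CXC ligands are named for the spacing of their first cysteines, and most receptors read ligands of 1 class only. In liver, Kupffer cells, sinusoidal endothelium, stellate cells, bile duct cells and hepatocytes can all make ligands, while the receptors sit mainly on lymphocytes, monocytes and other leukocytes. Cxcl12 with Cxcr4 is the homeostatic pair that holds leukocytes in tissues. Cxcl9 and Cxcl10 are induced by interferon gamma and call T cells through Cxcr3. Because whole liver was sequenced, fewer cells of a type and less RNA per cell cannot be told apart.

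The DNA upstream of 3 ligands is printed because these are the most abundant ligand, Cxcl12, and the interferon-induced pair, Cxcl9 and Cxcl10, and all 3 differed between the Cpt1a and Cpt2_AlbCre livers. Each line gives the 250 bases before the gene's start, 5′ to 3′ on the gene's strand, from RefSeq on GRCm38.p6. Capitals mark matches, on either strand, to the interferon-stimulated response element GAAANNGAAA or the loose kappaB pattern GGGNNNNNCC. The stretches are chr6:117168285-117168534 (plus strand) for Cxcl12, chr5:92328080-92328329 (minus strand) for Cxcl9 and chr5:92348890-92349139 (minus strand) for Cxcl10.
Cxcl12: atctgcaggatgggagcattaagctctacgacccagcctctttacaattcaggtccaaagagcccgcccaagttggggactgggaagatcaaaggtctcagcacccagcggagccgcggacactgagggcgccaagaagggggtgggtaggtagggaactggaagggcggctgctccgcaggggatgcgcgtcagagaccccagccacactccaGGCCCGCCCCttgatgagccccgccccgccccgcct
Cxcl9: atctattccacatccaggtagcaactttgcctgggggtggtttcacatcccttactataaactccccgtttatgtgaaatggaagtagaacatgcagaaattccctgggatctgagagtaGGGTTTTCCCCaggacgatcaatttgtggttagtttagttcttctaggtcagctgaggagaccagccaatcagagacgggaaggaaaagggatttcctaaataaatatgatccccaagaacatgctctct
Cxcl10: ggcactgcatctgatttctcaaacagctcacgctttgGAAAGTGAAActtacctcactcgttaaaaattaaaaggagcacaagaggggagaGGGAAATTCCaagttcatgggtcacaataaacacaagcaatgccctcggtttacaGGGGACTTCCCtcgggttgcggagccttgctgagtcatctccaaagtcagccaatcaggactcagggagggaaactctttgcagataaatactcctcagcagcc
The Cxcl10 stretch holds the response element with its first base 213 bases before the start, followed by kappaB matches at 159, 104 and 103 bases. In Cxcl9 the overlapping kappaB matches begin 130 and 129 bases before the start. In Cxcl12 the only match is a GC-rich run 36 bases before the start, and the loose kappaB pattern also matches such GC-rich runs elsewhere. Of 50 members on chromosomes, 37 matched a RefSeq promoter. The response element was in 3 of these 37 (8.11%: Ccl19, Cxcl10 and Cxcl14), against 3.46% of 27025 genes. The kappaB pattern was in 62.2% of the 37, against 48.7% of all genes. Another pattern, the gamma-activated sequence TTCNNNGAA, was in 8.11% of the 37 (Ccl17, Ccr6 and Cxcl14) and 8.13% of all genes. These matches are letters in a window, and no binding was measured.

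The libraries held 13138884 to 14116441 counts, and 19732 to 20258 genes had a count. FPKM, counts scaled by gene length and library size, is used for levels, so that genes can be set side by side. Cpt1a itself, the deleted gene, stood at 24.4, 28.6, 31.1 and 36.9 FPKM in livers 1 to 4. In the authors' deposited tables its log2 fold change was −3.52 against Cpt2_AlbCre (adjusted p = 7.11e-82) and −2.79 against Rab30Cpt2_f (adjusted p = 5.27e-51). The tissue label also held, since albumin was at 15479 ± 3733 FPKM (SD, n = 4).

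Few of the members were transcribed at more than trace levels in these livers. At least 1 count in any liver was found for 41 of 57 entries (71.9%), close to the 72.1% of all protein-coding genes. A count in every liver was found for 25 (43.9%, against 61.2%), and a mean count of at least 10 for 17 (29.8%, against 55.2%). A mean of at least 1 FPKM was reached by 9 members (15.8%, against 43.1% of protein-coding genes), all of them ligands. These 9 were Cxcl12, Ccl9, Ccl6, Cxcl13, Ccl27a, Cxcl16, Cxcl9, Ccl5 and Ccl25. None of the receptors described reached 1 FPKM on average. The 24 members with some counts but a mean count below 10 averaged 0.00539 to 0.341 FPKM.

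The members without a count were named genes with known roles elsewhere as well as extra copies. No count was found in any liver for the chromosomal entries of Ccl1, Ccl11, Ccl12, Ccl19, Ccl20, Ccl21a, Ccl21b, Ccl26, Ccl27b, Ccr8, Cxcl3 and Cxcl15. Ccl19 and the Ccl21 genes encode the ligands of Ccr7 that draw T cells and dendritic cells into lymph nodes, Ccl20 is the ligand of Ccr6, and Ccl11 is an eosinophil attractant. The other 4 entries at 0 were scaffold copies of Ccl19, Ccl21b, Ccl21c and Ccl27a. Further scaffold copies had a few counts. A copy of Ccl21a had 1 and 2 counts in livers 3 and 4 (mean 0.118 FPKM). Another copy each of Ccl21c and Ccl27a had 1 count in 1 liver. A limit of 3 counts corresponds to 0.0571 to 0.709 FPKM over the entries without a count, each taken in the liver where the limit is highest. It covers counting error only. Reads that fit several near-identical copies may have been dropped or split, so the levels of Ccl19, the Ccl21 genes and the Ccl27 genes are uncertain.

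**Figure D1:**
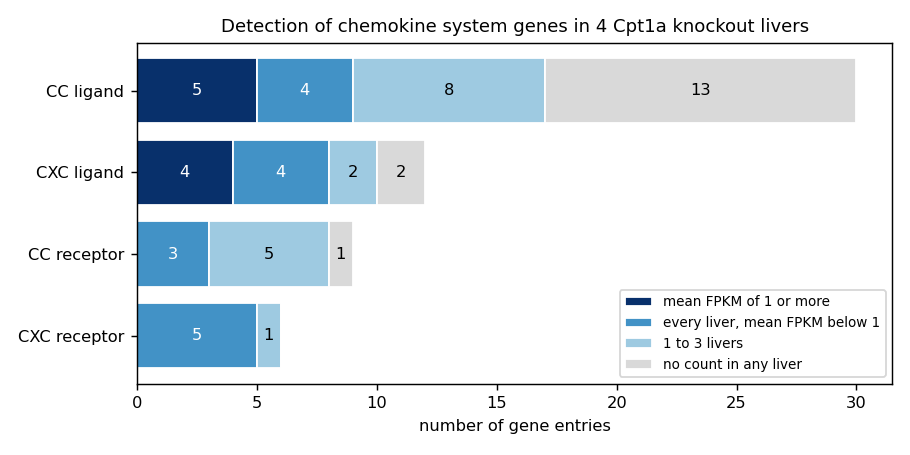
Number of gene entries (x axis) in each class of chemokine or receptor (y axis), divided by how the entry was detected in the 4 Cpt1a knockout livers. Of 30 CC ligands 5 and of 12 CXC ligands 4 reached a mean of 1 FPKM, while none of 9 CC and 6 CXC receptors did, and 13 CC ligands had no count.

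Cxcl12 made up most of the ligand transcript pool. It stood at 50.1, 61.9, 56.3 and 57.0 FPKM in livers 1 to 4 (56.3 ± 4.86, SD, n = 4). It was lowest in liver 1 and highest in liver 2, and ranked 701 among protein-coding genes. The summed FPKM of all ligands was 84.2, 103, 93.5 and 95.1 in livers 1 to 4, of which Cxcl12 took 59.5% to 60.3%. Its classical receptor Cxcr4 was far lower, at 0.848, 0.993, 0.383 and 0.387 FPKM (0.653 ± 0.315), high in livers 1 and 2 and low in livers 3 and 4. The receptors described summed to 2.82, 3.57, 2.47 and 2.63 FPKM, so the livers carried much more ligand than receptor transcript.

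The next most abundant were Ccl9 and Ccl6, CC ligands known from rodents and made by myeloid cells, of which Ccl9 acts through Ccr1. Ccl9 was at 10.5, 11.2, 11.3 and 10.3 FPKM (10.8 ± 0.524), and its SD was the smallest relative to the mean (4.84%) among members with a mean count of at least 10. Ccl6 was at 8.61, 11.2, 7.41 and 8.33 FPKM (8.88 ± 1.62), highest in liver 2. Ccr1 itself averaged 0.0223 FPKM and had counts in 2 of 4 livers.

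Cxcl13, which guides B cells into follicles through Cxcr5, was at 4.40, 2.95, 3.56 and 2.88 FPKM (3.45 ± 0.707). Ccl27a, a ligand of Ccr10 best known from skin, was at 2.16, 3.22, 4.08 and 4.15 FPKM (3.40 ± 0.931). Liver 1 was the highest of the 4 for Cxcl13 and the lowest for Ccl27a. Of their receptors, Cxcr5 averaged 0.0585 FPKM and Ccr10 averaged 0.0761 FPKM. Cxcl16, a membrane-bound ligand that also takes up oxidised lipoprotein, was at 1.94, 2.86, 2.21 and 3.07 FPKM (2.52 ± 0.534). Its receptor Cxcr6, carried by liver-resident T and NKT cells, was at 0.414, 0.964, 0.653 and 0.626 FPKM (0.664 ± 0.227). Both were lowest in liver 1.

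The interferon-induced ligand Cxcl9 was at 1.37, 2.45, 0.919 and 2.30 FPKM (1.76 ± 0.735), higher in livers 2 and 4 than in livers 1 and 3. Cxcl10 was at 0.680, 1.00, 1.01 and 0.509 FPKM (0.800 ± 0.248), higher in livers 2 and 3 than in livers 1 and 4. The pair thus differed in which livers were high, although they lie side by side on chromosome 5. Their shared receptor Cxcr3 was at 0.154, 0.461, 0.291 and 0.368 FPKM (0.318 ± 0.130) on 4, 12, 8 and 10 counts.

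Ccl5, made by activated T and NK cells, was at 0.625, 2.01, 1.05 and 1.26 FPKM (1.24 ± 0.579), lowest in liver 1 and highest in liver 2. Ccl25, a ligand of Ccr9 best known from thymus and small intestine, was at 1.04, 1.40, 1.05 and 0.949 FPKM (1.11 ± 0.200). Ccr9 was at 0.123, 0.117, 0.0369 and 0.124 FPKM (0.10 ± 0.0424), with liver 3 far below the others. The ligand Ccl25 was lowest in liver 4, and so not in the liver where its receptor was lowest.

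Of the myeloid attractants, Ccl24, an eosinophil attractant, was at 0.720, 0.667, 1.12 and 1.28 FPKM (0.946 ± 0.299). Cxcl1, a neutrophil attractant that signals through Cxcr2, was at 0.533, 0.248, 1.61 and 1.19 FPKM (0.896 ± 0.619). Both were higher in livers 3 and 4 than in livers 1 and 2, and Cxcl1 had the widest coefficient of variation (SD over mean) of the members with a mean count of at least 10. Cxcl14, a ligand of epithelia and fibroblasts, was at 0.365, 1.09, 0.276 and 0.557 FPKM (0.572 ± 0.366), highest in liver 2. Ccr2, the receptor that brings monocytes to inflamed tissue, was at 0.315, 0.246, 0.233 and 0.348 FPKM (0.286 ± 0.0552). Its main ligand Ccl2 averaged 0.213 FPKM on 2, 5, 5 and 3 counts. The inflammatory ligands Ccl3, Ccl4 and Cxcl2 averaged 0.125, 0.341 and 0.111 FPKM, and the neutrophil receptors Cxcr1 and Cxcr2 averaged 0.110 and 0.0835 FPKM. The rest of the receptors were at trace levels too, with Ccr7 averaging 0.311 FPKM, Ccr6 0.127 FPKM, Ccr3 0.0591 FPKM and Ccr4 0.00539 FPKM. Several of these low means rest on 1 liver. Without liver 1, Ccr6 averaged 0.0644 FPKM, Cxcr1 0.0721 FPKM and Ccr4 0 FPKM. Without liver 2 Ccr10 averaged 0.0501 FPKM, and without liver 3 Cxcr2 averaged 0.0493 FPKM and Ccr1 0.00749 FPKM.

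**Figure D2:**
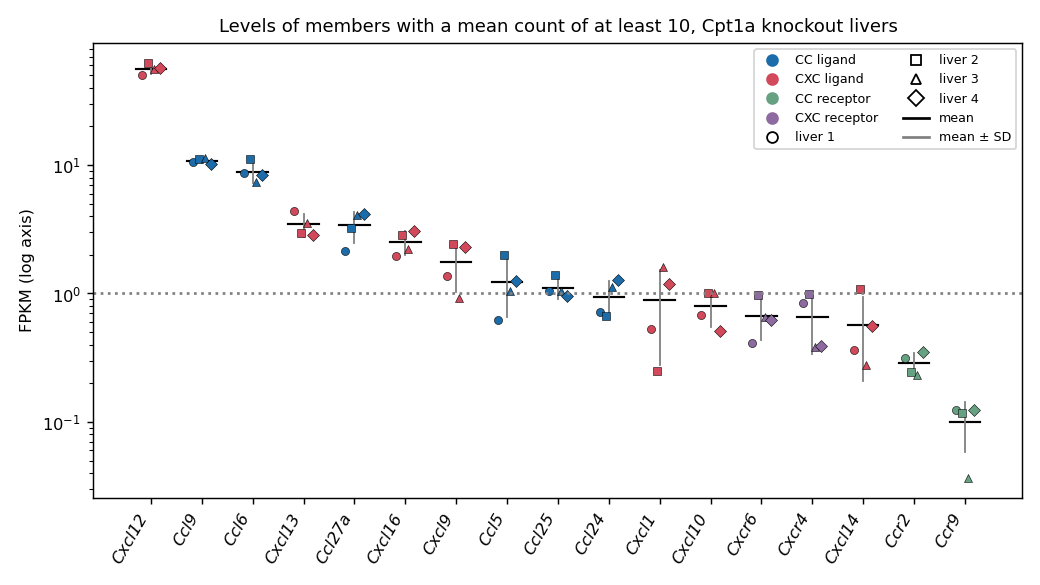
FPKM on a log axis (y axis) of the 17 members with a mean count of at least 10 (x axis), with a point for each of the 4 Cpt1a knockout livers, a bar for the mean, a line for the SD and a dotted line at 1 FPKM. Cxcl12 stands alone above 50 FPKM, Ccl9 and Ccl6 lie near 10 FPKM, and Ccr9 sits lowest at a mean of 0.10 FPKM.

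The spread between livers ran from close to counting error to well above it. Over the 17 with a mean count of at least 10, the coefficient of variation of FPKM had a median of 30.9%, where counting alone would give 18.3%. Over all 12159 protein-coding genes by the same filter, the median was 18.2%, where counting alone would give 6.23%. The members are thus low genes with more counting error than most, and these medians do not set their spread apart from that of other genes. In log2(FPKM + 1), the median SD was 0.22 for the 17 members and 0.17 for all genes. The coefficient ran between 4.84% for Ccl9 and 69.2% for Cxcl1. Counting error was 1.19% for Cxcl12 and 25.2% for Ccr9. Ccl9 lay near its counting error of 4.44%, as did Ccr2, at 19.3% against 18.3%.

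**Figure D3:**
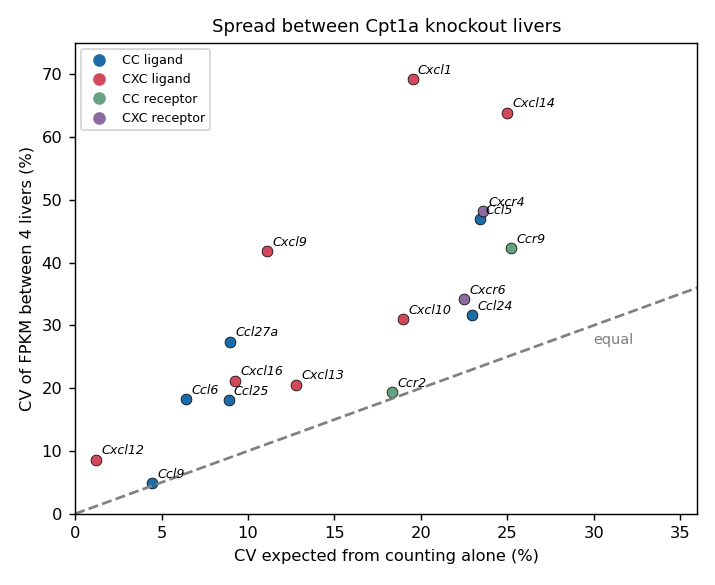
Observed coefficient of variation of FPKM between the 4 Cpt1a knockout livers (y axis, percent) against the value that counting error alone would give (x axis, percent), with a point for each member with a mean count of at least 10. Ccl9 lies next to the line of equality, and Cxcl1 at 69.2% and Cxcl14 at 63.9% lie farthest above it.

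Set against the Cpt2_AlbCre livers, the Cpt1a knockout livers carried more transcript of 9 ligands and 3 receptors. The authors' deposited table of this comparison listed 39 members and gave 30 of them an adjusted p. At an adjusted p below 0.05, 12 members were higher in the Cpt1a knockout and 0 were lower, per the authors' deposited table. Among all 17755 genes with an adjusted p in the authors' deposited table, 28.8% were called, 14.2% higher and 14.6% lower. The calls cover 9 of 18 ligands and 3 of 12 receptors with an adjusted p in the authors' deposited table. The 12 were 4 CC ligands, 5 CXC ligands, 2 CC receptors and 1 CXC receptor. By unadjusted p below 0.05, the authors' deposited table gave 16 members higher and 1 lower, the neutrophil receptor Cxcr1 (−1.75, adjusted p = 0.103).

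Cxcl12 had the smallest adjusted p of any member, with a log2 fold change of 1.55 (adjusted p = 1.45e-32) in the authors' deposited table. The myeloid ligands Ccl9 and Ccl6 followed in the authors' deposited table, at 1.36 (adjusted p = 1.81e-14) and 1.34 (adjusted p = 2.71e-07). The 3 most abundant ligands were thus all higher in the Cpt1a knockout than in Cpt2_AlbCre. Among the 9 ligands called, the B cell attractant Cxcl13 had the largest fold in the authors' deposited table, 1.91 on the log2 scale (adjusted p = 3.83e-06). Cxcl9 was at 1.74 (adjusted p = 7.33e-05) and its neighbour Cxcl10 at 1.66 (adjusted p = 0.00445) in the authors' deposited table. The interferon-induced pair, whose upstream letters are printed above, was therefore called in the same direction. Ccl27a (1.30), Ccl5 (1.66) and Cxcl16 (0.65) were the other ligands called higher in the authors' deposited table, with adjusted p of 2.46e-05, 0.0182 and 0.0175.

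Of 12 receptors with an adjusted p, the authors' deposited table called 3 higher and 0 lower. Of all genes it called 28.8%, 14.2% higher, so the number of receptors called lies near the share of all genes called. Cxcr6, of liver-resident T and NKT cells, was at 2.30 on the log2 scale (adjusted p = 0.00111) in the authors' deposited table. Ccr9 was at 2.17 (adjusted p = 0.00392) and Ccr2 at 1.34 (adjusted p = 0.00528) in the authors' deposited table. The homeostatic receptor Cxcr4 did not pass, at 0.23 (adjusted p = 0.799) in the authors' deposited table, although its ligand Cxcl12 did. Cxcr3 (1.63, adjusted p = 0.0908) and Ccr7 (1.54, adjusted p = 0.0993) did not pass in the authors' deposited table either.

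Among the ligands that did not pass in the authors' deposited table, Cxcl1 was at 1.44 (adjusted p = 0.0676), Ccl25 at 0.48 (adjusted p = 0.0653), Cxcl14 at 0.72 (adjusted p = 0.358) and Ccl24 at 0.09 (adjusted p = 0.906). Read by pairs, ligand and receptor were both called higher for Cxcl16 with Cxcr6. For Ccl25 with Ccr9 the receptor alone was called, and for Cxcl12 with Cxcr4 and Cxcl9 with Cxcr3 the ligand alone. The ligand alone was also called for Ccl27a with Ccr10 (0.41, adjusted p = 0.872 for Ccr10) in the authors' deposited table. The same held for Cxcl13 with Cxcr5 (1.00, adjusted p = 0.550 for Cxcr5). For Ccl2 with Ccr2 the receptor alone was called there (0.32, adjusted p = 0.832 for Ccl2). Whether the ligands and receptors of a pair differ in their response was not tested.

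In the Cpt2_AlbCre livers set against Rab30Cpt2_f, the calls were mostly ligands at lower levels. The authors' deposited table listed 41 members and gave 25 an adjusted p. Of these, 6 were lower in Cpt2_AlbCre and 1 was higher in the authors' deposited table, where 21.0% of 17475 genes were called, 10.3% higher and 10.7% lower. All 6 were ligands, 3 of class CC and 3 of class CXC. The log2 fold changes in the authors' deposited table were −0.996 for Cxcl12 (adjusted p = 5.32e-07) and −1.29 for Ccl9 (adjusted p = 6.63e-07). The other 4 in the authors' deposited table were Cxcl13 (−1.39, adjusted p = 0.0208), Ccl27a (−0.86, adjusted p = 0.0169), Ccl24 (−1.31, adjusted p = 0.0119) and Cxcl1 (−1.49, adjusted p = 0.026). The ligands that fell thus include both of the most abundant ones, a B cell attractant and a neutrophil attractant. The member that rose was the neutrophil receptor Cxcr1, at 4.66 (adjusted p = 0.00315) in the authors' deposited table. Cxcr1 had 5, 2, 2 and 1 counts in the Cpt1a knockout livers, so it is not among members with a mean count of at least 10 there. Those livers are in neither group of this comparison, so that filter does not decide the call. By the summed log2 fold changes of the authors' deposited tables, though, Cxcr1 stood at 2.91 in the Cpt1a knockout against Rab30Cpt2_f. Its level in Rab30Cpt2_f was thus below even those few counts, and the change of 4.66 is measured from near the floor.

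In the Cpt1a knockout set against Rab30Cpt2_f, most calls were rises. This authors' deposited table lists only genes with an unadjusted p below 0.05, 4461 in all. Among them are 13 members, 11 of them with an adjusted p. About 16862 genes were adjusted for, as inferred from the p-values. Per the authors' deposited table, 5 members were higher in the Cpt1a knockout and 1 was lower, against 14.4% of genes called, 6.81% higher and 7.60% lower. Of the 25 members with an adjusted p in both of the other tables, these 6 are 24%. The ligands that rose in the authors' deposited table were Cxcl12 (0.57, adjusted p = 0.0191), Ccl6 (1.07, adjusted p = 1.61e-05) and Cxcl16 (0.78, adjusted p = 0.0168). The receptors that rose in the authors' deposited table were Cxcr6 (2.42, adjusted p = 0.0029) and Ccr9 (1.99, adjusted p = 0.0273). The pair Cxcl16 and Cxcr6 was therefore called on both sides here too. The member that fell was the eosinophil attractant Ccl24 (−1.22, adjusted p = 0.0387) in the authors' deposited table. Listed but not past the threshold in the authors' deposited table were Cxcl9 (0.95, adjusted p = 0.103), Cxcl10 (1.15, adjusted p = 0.0802), Ccr2 (1.01, adjusted p = 0.0988), Ccr7 (1.67, adjusted p = 0.123) and Ccl28 (3.47, adjusted p = 0.0734). At an adjusted p below 0.01, Ccl6 and Cxcr6 were left in the authors' deposited table.

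The 3 comparisons share their groups and are not independent, so each member's values are set side by side. Cxcl12 was called in all 3 of the authors' deposited tables, at 1.55 and 0.57 for the Cpt1a knockout against Cpt2_AlbCre and Rab30Cpt2_f, and at −0.996 for Cpt2_AlbCre against Rab30Cpt2_f. Ccl6, Cxcl16, Cxcr6 and Ccr9 were called in both of the authors' deposited tables that hold the Cpt1a knockout. Ccl9, Cxcl13 and Ccl27a were called in both of the authors' deposited tables that hold Cpt2_AlbCre. Cxcl9, Cxcl10, Ccl5 and Ccr2 were called between the Cpt1a knockout and Cpt2_AlbCre alone among the authors' deposited tables. Ccl24 was called in both of the authors' deposited tables that hold Rab30Cpt2_f, lower each time.

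The members as a list lay above 0 in the Cpt1a knockout and below it in Cpt2_AlbCre. Over the 30 members with an adjusted p, the median log2 fold change of the Cpt1a knockout against Cpt2_AlbCre was 1.32 in the authors' deposited table, with 28 above 0. All 17755 genes of the authors' deposited table had a median of 0.05, with 53.4% above 0. Over the 25 members with an adjusted p in Cpt2_AlbCre against Rab30Cpt2_f, the authors' deposited table gave a median of −0.58, with 6 above 0, and −0.03 over all 17475 genes. For the Cpt1a knockout against Rab30Cpt2_f, the sum of those log2 fold changes from the authors' deposited tables had a median of 0.52 over 25 members, with 20 above 0, and 0.01 over all genes. Over the 17 members with a mean count of at least 10 in the Cpt1a knockout livers, the 3 medians from the authors' deposited tables were 1.36, −0.72 and 0.52. That filter uses a group that is compared, and members low in the Cpt1a knockout cannot pass it.

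**Figure D4:**
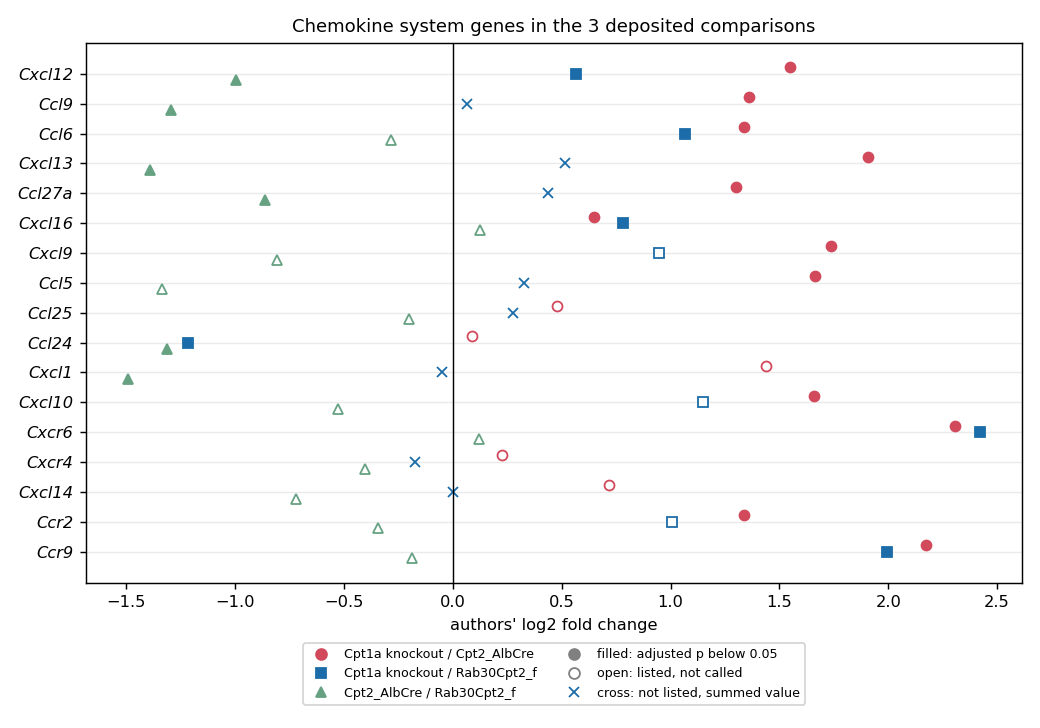
Log2 fold changes of the authors' deposited tables (x axis) for the 17 members with a mean count of at least 10 in the Cpt1a knockout livers (y axis) in the 3 comparisons. Filled marks are called at an adjusted p below 0.05, open marks are listed and not called, and crosses are summed values where the table lists none. All 12 filled circles (Cpt1a knockout over Cpt2_AlbCre) lie above 0, and all filled triangles (Cpt2_AlbCre over Rab30Cpt2_f) lie below it.

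Many members lie in clusters on the chromosomes (GRCm38, as the deposited table gives them), here members at most 500 kb apart. The receptor cluster at chr9:123678439-124113557 includes Ccr9, Cxcr6, Ccr1, Ccr3 and Ccr2, and these 5 had counts. Of these 5, the authors' deposited tables called 3 higher in the Cpt1a knockout against Cpt2_AlbCre and 2 higher against Rab30Cpt2_f. Among all genes, 14.2% and 6.81% were called higher in these comparisons in the authors' deposited tables. The ligand cluster at chr11:83525778-83664683 holds Ccl5, Ccl9, Ccl6, Ccl3 and Ccl4. Of its genes, Ccl5, Ccl9 and Ccl6 were called higher against Cpt2_AlbCre in the authors' deposited table. Ccl3 (−0.60, adjusted p = 0.798) and Ccl4 (0.79, adjusted p = 0.631) were not called in the authors' deposited table. The cluster of monocyte and eosinophil attractants at chr11:82035571-82305690 holds Ccl2, Ccl7, Ccl11, Ccl12, Ccl8 and Ccl1. Of these, 3 had counts, none had a mean count of 10, and only Ccl2 had an adjusted p in the authors' deposited tables. Ccl2 was not called, and the others could not be. The cluster at chr5:90759360-90905938, with the neutrophil attractants Cxcl5, Cxcl1, Cxcl2 and Cxcl3 and with Cxcl15, had 1 call in the authors' deposited tables, Cxcl1 in Cpt2_AlbCre. The pair Cxcl9 and Cxcl10, at chr5:92321347-92348889, was called at both genes against Cpt2_AlbCre in the authors' deposited table. Some clusters thus held several calls. Of all members with an adjusted p, however, 40% were called higher against Cpt2_AlbCre in the authors' deposited table. Whether neighbours were called together more often than other members was not tested. In the cluster of Ccl2, counts were too low for most genes to be called.

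In the reference annotation, some members share exon bases with genes of the opposite strand: 18.8% of the bases of Ccr9, 18.3% of Cxcl16 with Zmynd15, and 5.91% of Cxcl10 with Art3. The use of strand in counting is not stated, so part of those values may belong to the other gene.

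Most of the genes listed as induced by interferon gamma were higher in the Cpt1a knockout than in Cpt2_AlbCre, as were Cxcl9 and Cxcl10. In the authors' deposited table against Cpt2_AlbCre, 17 of 26 such genes were higher and 0 lower. Of all genes there, 28.8% were called, 14.2% higher. Those with a mean count of at least 10 in the Cpt1a knockout livers had a median log2 fold change of 1.00. That filter uses a group that is compared. The genes called higher include Cd74, the invariant chain of class II antigen presentation (1.45, adjusted p = 1.46e-09), in the authors' deposited table. They also include the guanylate-binding proteins Gbp3 (1.48, adjusted p = 2.20e-08) and Gbp4 (1.48, adjusted p = 1.08e-07) in the authors' deposited table. Against Rab30Cpt2_f, the authors' deposited tables called 9 of the 26 higher and 1 lower in the Cpt1a knockout, and 0 higher and 4 lower in Cpt2_AlbCre. Of all genes, the authors' deposited tables called 14.4% in the former comparison (6.81% higher) and 21.0% in the latter (10.7% lower). Among 20 targets of NF-kB, which also induces chemokines, the authors' deposited table against Cpt2_AlbCre called 3 higher and 2 lower. That count lies near the share of all genes called. Their median was 0.04 by the same filter in the authors' deposited table. The subunit Rela was lower (−0.92, adjusted p = 5.42e-09) and the regulator Nfkbiz was higher (0.79, adjusted p = 0.000684) in the authors' deposited table. The part of interferon gamma or NF-kB in the differences of the members was not tested. Of 24 genes of chemokine receptor signalling, the authors' deposited table called 8 higher in the Cpt1a knockout and 3 lower, against 28.8% of all genes. Rap1b, a small GTPase of integrin activation (0.66, adjusted p = 1.62e-06), and Rac2, a small GTPase of blood cells (1.23, adjusted p = 0.00318), were higher, and the inhibitory G protein subunit Gnai2 was lower (−0.45, adjusted p = 0.00189), in the authors' deposited table.

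Markers of the cells that make or read chemokines gave unequal counts, to be read against the 28.8% of all genes called in that comparison (14.2% higher). Of 12 Kupffer cell and macrophage markers, the authors' deposited table against Cpt2_AlbCre called 9 higher in the Cpt1a knockout and 1 lower. Vsig4, a complement receptor of resident Kupffer cells, was at 1.19 (adjusted p = 4.84e-10) and Timd4, their phosphatidylserine receptor, at 1.48 (adjusted p = 3.81e-08) in the authors' deposited table. Cd68, a lysosomal protein of macrophages, was the marker that was lower (−2.18, adjusted p = 2.56e-22) in the authors' deposited table. Against Rab30Cpt2_f, Cd68 was higher in Cpt2_AlbCre (2.60, adjusted p = 2.96e-25) in the authors' deposited table. In the same authors' deposited tables Vsig4 (−0.65, adjusted p = 0.0234) and Timd4 (−0.93, adjusted p = 0.0268) were lower in Cpt2_AlbCre, so the macrophage markers did not all move one way.

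Of 10 T cell markers, the authors' deposited table against Cpt2_AlbCre called 3 higher and 0 lower, namely Cd3d (2.19, adjusted p = 0.0245), Cd2 (2.41, adjusted p = 0.0311) and Trac (1.73, adjusted p = 0.0473). Of 9 B cell markers it called 3 higher and 0 lower, among them Cd79b (1.74, adjusted p = 0.00143), in the authors' deposited table. In the 4 Cpt1a knockout livers the macrophage markers summed to 198 to 219 FPKM, the B cell markers to 5.28 to 8.46 FPKM and the T cell markers to 2.02 to 3.46 FPKM. Lymphocyte transcripts were scarce beside those of macrophages. The counts of T cell and B cell markers lie near the 28.8% of all genes called in either direction in the authors' deposited table. All of these marker calls were higher, where the share of all genes was 14.2%. Of 11 neutrophil markers 1 was called higher, of 9 monocyte markers 2 and of 9 dendritic cell markers 3, with 0 lower in each, per the authors' deposited table. The share of all genes covers only genes with an adjusted p, while 6 of the neutrophil markers had none there and 1 was not listed. Most neutrophil markers could therefore not be called. The neutrophil marker Camp had no count in any liver. Of 10 NK cell markers 0 were called in either direction in the authors' deposited table, with 1 higher at an unadjusted p below 0.05. Of these 10, 3 had no adjusted p. Of 11 sinusoidal endothelial markers 5 were called higher and 0 lower, and of 11 stellate cell markers 2 higher and 3 lower, per the authors' deposited table. The part of these cells in the differences of Cxcl12, Ccl6, Ccl9, Cxcr6 and the other members was not tested.

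Against Rab30Cpt2_f the markers gave other counts. For the Cpt1a knockout, the authors' deposited table called 1 of 12 macrophage markers, 2 of 10 T cell markers and 5 of 9 B cell markers higher. It called 0 of each lower, and 14.4% of all genes (6.81% higher). For Cpt2_AlbCre, the authors' deposited table called 1 macrophage marker higher and 3 lower, and 1 T cell marker lower. There 21.0% of all genes were called, 10.7% lower. Of 10 hepatocyte markers, the authors' deposited tables called 7 lower and 0 higher in each of these comparisons, and 3 higher and 2 lower in the Cpt1a knockout against Cpt2_AlbCre. The part of any cell type in the calls against Rab30Cpt2_f was not tested either.

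**Figure D5:**
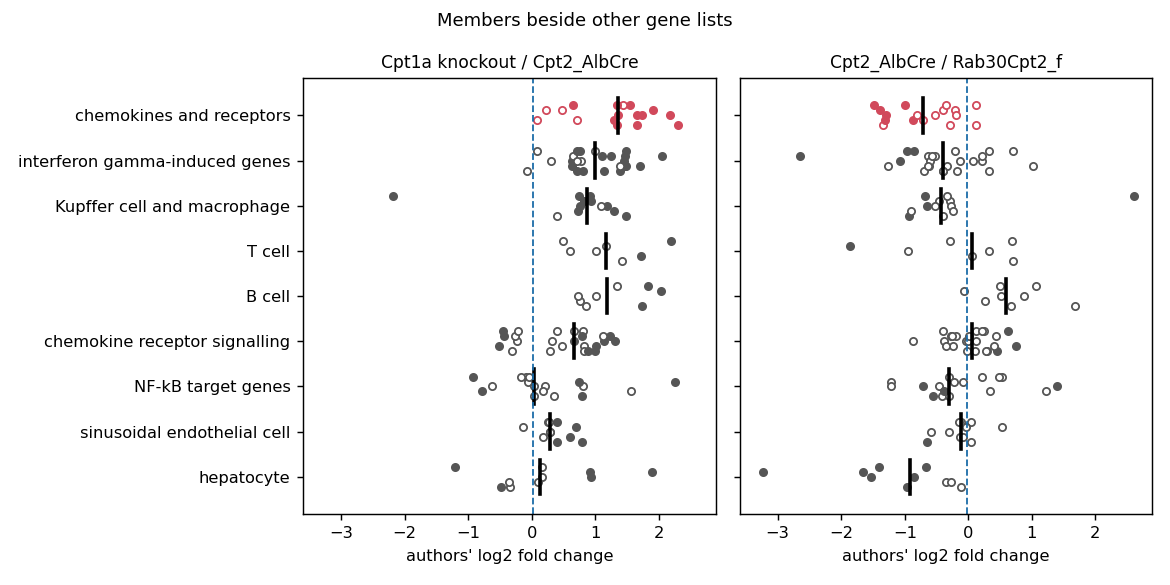
Log2 fold changes of the authors' deposited tables (x axis) for the members and 8 lists of other genes (y axis). The Cpt1a knockout over Cpt2_AlbCre is on the left and Cpt2_AlbCre over Rab30Cpt2_f on the right. All genes are filtered at a mean count of 10 in the Cpt1a knockout livers, a group that is compared on the left. Filled points are called, bars are list medians and the dashed line is the median of all genes; on the left the members (1.36), the interferon gamma-induced genes (1.00) and the macrophage markers (0.87) lie above that line, with Cd68 alone far below.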

How the data were processed

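RNA of 4 livers was measured by RNA-seq. Per the labels, it was purified with TRIzol and columns, and Novogene prepared the libraries. HISAT2 and the build GRCm38 (mm10) are named in the submitters' processing notes; the counter, annotation and strand setting are not given there. The deposited gene table holds raw counts per gene, and a second deposited table holds FPKM. Both hold 8 further per-sample columns, which fit none of the samples and were not used.

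The comparisons are the authors' own: 3 deposited tables give each gene's log2 fold change, p-value and adjusted p-value, per the file headers, by a test that is not stated. Where the adjusted p was 1, the gene was taken as not adjusted. The group means in these tables were not used. The samples form 1 labelled group, so the libraries allow no fit between groups, and calls use the authors' adjusted p below 0.05. The table of the Cpt1a knockout against Rab30Cpt2_f lists 4461 genes; medians for it sum the log2 fold changes of the other 2 tables.

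Means, SDs and coefficients of variation were computed with pandas 2.3.3. FPKM was set beside TMM (edgeR 4.0.16) and median-of-ratios scaling of the counts. Low values were filtered at a mean count of 10 in the Cpt1a knockout livers. The log2 FPKM used a pseudocount of 1, and counting error was taken as Poisson. The computations were tested on simulated data. Named members were those with a mean FPKM of at least 1, those called in any table and, by name only, those with no count; others stand as further description. The members, gene lists and tests were chosen with earlier results of these data known. Ccl27b, Ccr2, Cxcr2 and Ccr7, members that were also on a list, were left out of it. Of the entries that the rule found, 1 is not reported here and enters no count of members.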

Additional observations from a re-analysis of the deposited data

Results flagged for a closer look

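Among the 17 members with a mean count of at least 10, Ccr9 had 1 liver far from the others: liver 3 was at 0.0369 FPKM, on 6 counts, against 0.117 to 0.124 FPKM in the other livers. Chance alone sets apart the lowest or highest sample in about 1 in 20 groups of this kind.

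The effects of the Cpt1a knockout and of Cpt2_AlbCre, both set against Rab30Cpt2_f, differed for 12 members by the direct comparison in the authors' deposited table. On the log2 scale, Cpt1a knockout over Cpt2_AlbCre, the authors' deposited table gave 1.55 for Cxcl12, 1.36 for Ccl9, 1.34 for Ccl6, 1.91 for Cxcl13 and 1.30 for Ccl27a. It gave 0.65 for Cxcl16, 1.74 for Cxcl9, 1.66 for Ccl5 and 1.66 for Cxcl10 in the same authors' deposited table. The receptors in the authors' deposited table were Cxcr6 at 2.30, Ccr2 at 1.34 and Ccr9 at 2.17.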

How the results depend on the processing

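Of 55 alternatives to the summary values, 40 kept their direction and stayed within the limits of the main value. All 109 alternatives for the 16 members followed singly did so too, but many of these could not fail. With 4 livers, leaving out 1 cannot move a mean by its SD, which was the limit here and for the summed FPKM. The sum of the other 2 comparisons nearly repeats the listed log2 fold change, with a largest difference of 0.0168 among members. The mean of Cxcr1, on 1 to 5 counts per liver, became 0.0721 FPKM without liver 1, against 0.110 FPKM with all 4. The count of members at a mean of 1 FPKM, 9, became 6 at 2 FPKM, 15 at 0.5 FPKM and 17 at a mean count of 10, and leaving out each liver in turn gave 9 to 11. The summed FPKM of 96.9 ran between 93.6 and 100.2 with each liver left out. The median SD of 0.22 in log2 FPKM became 0.42 with a pseudocount of 0.1 and 0.12 with no filter. For the Cpt1a knockout against Rab30Cpt2_f in the authors' deposited table, the 5 higher became 8 at an adjusted p below 0.1, 2 at an adjusted p below 0.01, 12 at an unadjusted p below 0.05 and 3 when a change of at least 1 on the log2 scale was also required, and the 1 lower became 0 at an adjusted p below 0.01. For Cpt2_AlbCre against Rab30Cpt2_f in the authors' deposited table, the 6 lower became 2 at an adjusted p below 0.01. The 1 higher became 0 among members with a mean count of at least 10 in the Cpt1a knockout livers, a group outside that comparison. For the Cpt1a knockout against Cpt2_AlbCre in the authors' deposited table, the 0 lower became 1 at an unadjusted p below 0.05. For the Cpt1a knockout against Rab30Cpt2_f, the median of 0.52 became 1.15 over the 13 members that the authors' deposited table lists, which were listed by their p-value. For Cpt2_AlbCre against Rab30Cpt2_f, the median of −0.72 became −0.34 with no filter, and for the Cpt1a knockout against Cpt2_AlbCre the median of 1.36 became 1.12; the cause was not tested. The medians over members with an adjusted p, chosen as an alternative after seeing the data, were 1.32 for the Cpt1a knockout against Cpt2_AlbCre, −0.58 for Cpt2_AlbCre against Rab30Cpt2_f and 0.52 for the Cpt1a knockout against Rab30Cpt2_f, from the authors' deposited tables. No paired analysis was possible because the libraries form 1 labelled group. At 13138884 to 14116441 counts per library, members at a few counts, most receptors among them, cannot be ranked.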

Other observations

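Of 14 genes of the chemokine system outside the naming rule, the authors' deposited table called 3 higher in the Cpt1a knockout against Cpt2_AlbCre and 0 lower, among them Ackr4, a scavenger of Ccl19, Ccl21 and Ccl25 (0.89, adjusted p = 0.0349). That count is to be read against the 28.8% of all genes called in the authors' deposited table. Ackr1, a decoy receptor of red cells and venules, was lower in the Cpt1a knockout against Rab30Cpt2_f (−1.43, adjusted p = 0.0486) and in Cpt2_AlbCre against Rab30Cpt2_f (−1.87, adjusted p = 0.00406) in the authors' deposited tables. Of 12 proteases that trim chemokines, the authors' deposited table called 1 higher in the Cpt1a knockout against Cpt2_AlbCre and 4 lower. Of these 12, 2 had no adjusted p and 1 was not listed. Mmp9, a gelatinase of leukocytes, was higher (1.65, adjusted p = 0.0313), and the macrophage elastase Mmp12 (−1.61, adjusted p = 0.0202) was among those lower, in the authors' deposited table. Of 9 bile duct cell markers, the authors' deposited table of that comparison called Sox9 alone (1.52, adjusted p = 0.00136), and 3 had no adjusted p.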
